A study of Mus musculus with 20 samples.

Results

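Transcript levels of 8 genes of the PPAR system and of fatty acid oxidation were measured in mouse hair follicle stem cells: the receptors Ppara, Ppard and Pparg, the target Angptl4, and the metabolic genes Cpt1a, Acadl, Pdk4 and Ucp2. They were chosen by name, through the transcript accession of each array probe, and all 8 had a tested probe among the 18727 genes tested. Ucp2 was the only one of the 8 to pass the test in any comparison: it was higher in anagen, the growth phase of the hair cycle, than in telogen, its resting phase, by 1.32 ± 0.37 on the log2 scale (SE), a 2.5-fold difference. In that comparison 6.11% of all genes passed. When each of the 20 arrays was left out in turn, Ucp2 no longer passed in 13 cases. Angptl4 was the gene of the 8 that separated the aged arrays from all others. It lay at 1.03 to 3.00 on the 4 aged arrays and at -2.33 to 0.58 on the 16 other arrays. How many of all genes do so was not counted, and the aged differences of Angptl4 did not pass the test over all genes. No other telogen array lay on the slide of the aged ones, so age and slide cannot be told apart in telogen. No high fat diet difference in telogen passed for any of the 8, nor for any other of the 18727 genes.

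The study compared diet and age in hair follicle stem cells, the cells of the bulge that rebuild the follicle at each cycle. All mice were male. A high fat diet (HFD) had been given for 3 months or for 4 days, each beside a normal diet (ND) for the same time. Mice of the 3 month groups were 5 months old, those of the 4 day groups 2 months old, and the aged group was 24 months old. Each of these 5 conditions had 3 telogen arrays and 1 anagen array, each hybridised with total RNA of 1 sample. The labels number the telogen samples as replicates and do not say whether these came from separate animals, so a p-value here reflects only how much these samples scatter, which may be technical. Neither the strain, the diet of the aged mice nor the way the cells were isolated is given in the sources used here.

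PPARs are nuclear receptors for fatty acids and their derivatives. They bind DNA as pairs with a retinoid X receptor, at copies of the hexamer AGGTCA, and turn on genes for the uptake, storage and burning of fat. PPAR alpha drives fatty acid oxidation in the fasting liver, PPAR delta does so in muscle and is found in most tissues, and PPAR gamma directs fat cell formation and, in skin, sebaceous gland formation. Angptl4 is a secreted inhibitor of lipoprotein lipase, Cpt1a lets long-chain fatty acids into mitochondria, Acadl carries out a first step of their oxidation, Pdk4 shuts glucose carbon out of the citrate cycle, and Ucp2 is a carrier of the inner mitochondrial membrane.

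Of the 8 genes, 7 (all but Angptl4) had entries among the RefSeq promoter sequences (build GRCm38.p6), 9 promoters in all. The 250 bases before each start were searched on both strands for AGGTCA. The hexamer lay in 3 of the 9, against 14% of 32851 promoters of all genes. The 3 were promoters of only Pparg and Cpt1a, as Pparg had matches 28 and 9 bases before separate starts. Both strands were also searched for the full element, AGGTCA followed by any 1 base and AGGTCA again, and it was in none of the 9 and in 0.0335% of all promoters. The full element holds the hexamer, so the counts overlap. Ucp2 is shown because it passed the test, its neighbour Ucp3 because its level followed that of Ucp2 most closely, and Cpt1a as the gene of fatty acid oxidation with a match. Each runs 5′ to 3′ on the plus strand up to the base before the start, with the hexamer, or its complement, in capitals.
Ucp2, chr7:100493108-100493357: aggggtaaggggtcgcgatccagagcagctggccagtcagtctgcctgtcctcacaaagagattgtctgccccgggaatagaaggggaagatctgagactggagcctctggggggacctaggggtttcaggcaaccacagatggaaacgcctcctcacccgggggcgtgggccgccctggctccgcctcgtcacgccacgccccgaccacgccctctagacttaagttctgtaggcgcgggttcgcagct
Ucp3, chr7:100472741-100472990: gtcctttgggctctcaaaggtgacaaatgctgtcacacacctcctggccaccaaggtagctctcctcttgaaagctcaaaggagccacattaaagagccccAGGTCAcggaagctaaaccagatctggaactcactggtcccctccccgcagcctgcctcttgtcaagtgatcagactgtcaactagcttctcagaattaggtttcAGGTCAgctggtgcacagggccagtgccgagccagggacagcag
Cpt1a, chr19:3323051-3323300: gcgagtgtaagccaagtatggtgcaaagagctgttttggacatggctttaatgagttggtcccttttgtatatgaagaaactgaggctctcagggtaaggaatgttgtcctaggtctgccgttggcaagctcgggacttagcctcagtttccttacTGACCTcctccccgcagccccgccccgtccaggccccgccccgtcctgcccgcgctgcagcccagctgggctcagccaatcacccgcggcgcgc
The Ucp2 window held no match. The Ucp3 window held 2, beginning 149 and 44 bases before the start, and the Cpt1a window held 1, on the minus strand, beginning 94 bases before the start. These are descriptions of letters and say nothing of binding.

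Levels are log2 values of background-subtracted probe brightness with 0 at the 75th percentile of the array, so they compare samples for 1 probe and not 1 gene with another. From 60.7% to 83.49% of spots per array passed the scanner's call of well above background, and 7 of the 8 genes were so on all 20 arrays; Pdk4 was on 16. All 10 listed bulge markers, among them Cd34, Krt15 and Lhx2, were well above background on every array. The 6 suprabasal epidermal markers tested were too, with linear summed levels of 109 to 168 in anagen and 68.8 to 182 in telogen. Of the 6 endothelial markers Cldn5 was above it on 19 arrays, Pecam1 on 17, Emcn on 4, Tie1 on 2, and Cdh5 and Kdr on 0. The arrays lay on 3 slides, each with a scan of its own. The first held ND 3 months telogen, HFD 3 months telogen and ND 3 months anagen, the second the telogen arrays of both 4 day groups with the HFD 3 months and ND 4 days anagen arrays, and the third both aged groups with HFD 4 days anagen. All anagen arrays lay in column 1, so that column and phase cannot be told apart. In the telogen diet groups all ND arrays lay in row 1 of their slide and all HFD arrays in row 2. Row and diet therefore cannot be told apart in telogen. Spots well above background made up 64.32% to 74.44% on these HFD arrays and 73.67% to 83.49% on these ND arrays.

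**Figure D1:**
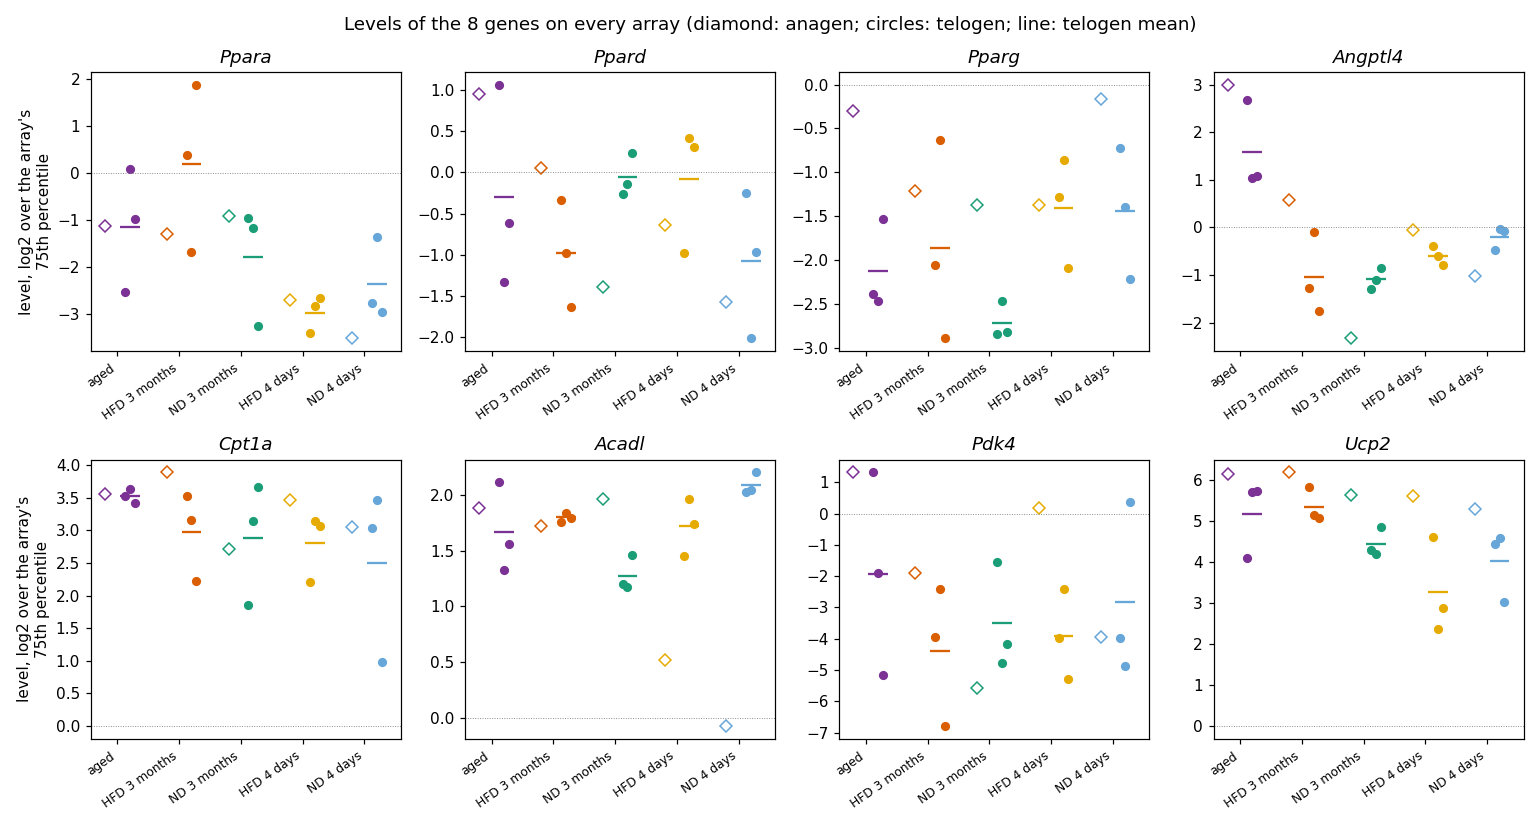
Log2 level of each of the 8 genes on every array, relative to the 75th percentile of the array (dotted line at 0), by condition. Open diamonds are the single anagen arrays, filled circles the 3 telogen arrays and bars their mean; the aged arrays of Angptl4 lie at 1.03 to 3.00, above all others, and the anagen arrays of Ucp2 at 5.30 to 6.20.

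Among the receptors, Ppara, the fasting receptor of the liver, gave the widest diet difference after 3 months. Its level was 0.39, -1.68 and 1.89 in HFD 3 months telogen, against -0.95, -1.17 and -3.24 in ND 3 months telogen. One HFD sample lay within the range of the ND samples, so the groups overlapped. The difference of 1.99 ± 0.92 (SE, n = 3 each) did not pass the test (limma adjusted p = 1). After 4 days Ppara lay at -3.39 to -2.66 in HFD and at -2.95 to -1.35 in ND, a difference of -0.61 ± 0.92.

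A second, dimmer probe for the same Ppara transcript pointed the other way. It was well above background on 10 of 20 arrays: on 0 of 3 HFD 3 months telogen arrays, at -7.19 ± 0.44 (SD), and on 3 of 3 ND 3 months telogen arrays, at -3.49 ± 1.27. Taken against the lowest signal called above background, that is at least 2.99-fold lower in HFD, where the brighter probe was 3.97-fold higher. Across the 20 arrays the probes correlated at -0.42. With the mean of both probes the 3 month difference was -0.85 (limma adjusted p = 0.999), so no direction is given for Ppara.

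Ppard, the broadly expressed receptor, had diet differences of opposite sign at the 2 durations. After 3 months it lay at -0.34, -0.98 and -1.64 in HFD and at -0.26, -0.14 and 0.24 in ND telogen, and the groups did not overlap. After 4 days it lay at -0.98, 0.42 and 0.31 in HFD and at -0.25, -2.02 and -0.97 in ND telogen, and they did. The differences were -0.93 ± 0.64 and 1.00 ± 0.64 (SE, n = 3 each). The limma test of the difference between durations gave -1.93 ± 0.90 (adjusted p = 1). In aged telogen Ppard ranged from -1.33 to 1.07, overlapping both normal diet groups.

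The aged differences of these receptors did not pass the test. For the brighter Ppara probe they were 0.65 ± 0.92 against ND 3 months and 1.22 ± 0.92 against ND 4 days (SE, n = 3 each). The dimmer Ppara probe gave -1.54 and -0.11, with the opposite sign, and was well above background on 2 of 3 aged, 3 of 3 ND 3 months and 2 of 3 ND 4 days telogen arrays. For Ppard the differences were -0.24 ± 0.64 and 0.79 ± 0.64. Anagen minus telogen within conditions ran from -1.51 to 0.88 for the brighter Ppara probe and from -1.35 to 1.25 for Ppard, with both signs among the 5 conditions, and neither gene passed.

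Pparg, the receptor of fat and sebaceous cells, was higher on the anagen array than the telogen mean in all 5 conditions, though by only 0.04 in HFD 4 days. The largest difference was 1.82, in aged. It lay at -1.37 to -0.17 on the 5 anagen arrays and at -2.89 to -0.63 on the 15 telogen arrays. Of the anagen arrays, 3, aged at -0.30, ND 3 months at -1.37 and ND 4 days at -0.17, were above every telogen array of their own condition. The other two were inside the telogen range. The difference of 1.03 ± 0.35 did not pass (limma adjusted p = 0.0903), and it did after scaling by the median of each array (1.24, adjusted p = 0.0289) or without HFD 3 months telogen replicate 2 (1.15, adjusted p = 0.0347). Of 8 sebocyte markers tested, 6 had a higher mean in anagen and 0 were called; their linear summed level was 13.6 to 21.7 on the anagen arrays and 10.7 to 34.4 on the telogen arrays. Their part in the Pparg values was not tested.

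Within telogen the mean of Pparg was lowest in ND 3 months, with samples at -2.84, -2.47 and -2.82, and the ND 4 days samples at -0.72, -1.39 and -2.21 were all above these. The difference of -1.27 ± 0.56 (ND 3 months minus ND 4 days) had a limma p of 0.0432 and an adjusted p of 0.409. Aged samples, at -2.38, -2.46 and -1.53, were all above ND 3 months, by as little as -2.46 against -2.47, and the difference of 0.59 ± 0.56 did not pass (adjusted p = 0.725). HFD 3 months, HFD 4 days and ND 4 days overlapped one another.

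Angptl4, the lipoprotein lipase inhibitor and a PPAR target in many tissues, was the gene of the 8 with the clearest order of groups. In telogen its level was 2.67, 1.03 and 1.07 in aged mice, against -1.30, -1.10 and -0.85 in ND 3 months and -0.47, -0.04 and -0.08 in ND 4 days. The aged samples lay above all samples of both normal diet groups. The aged difference was 2.67 ± 0.48 against ND 3 months, a 6.37-fold difference (95% interval 1.63 to 3.71 in log2, n = 3 each). It ranked 20 of 18727 genes by p and did not pass the limma test (adjusted p = 0.102). Against ND 4 days it was 1.78 ± 0.48 (adjusted p = 0.315). In bulk RNA, more RNA per cell and more cells of a kind cannot be told apart.

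Anagen gave Angptl4 the same place for the aged sample, with 3.00 in aged, 0.58 in HFD 3 months, -2.33 in ND 3 months, -0.05 in HFD 4 days and -1.03 in ND 4 days. Both HFD samples were above the ND sample of the same duration, by 2.91 and 0.98, with 1 array each and no test. The HFD and ND arrays of each pair lay on different slides, so diet and slide cannot be told apart. In telogen it was at -1.28, -0.09 and -1.76 in HFD 3 months, spanning the ND 3 months range, and at -0.39, -0.61 and -0.80 in HFD 4 days, overlapping ND 4 days. The telogen diet differences were 0.04 ± 0.48 and -0.41 ± 0.48.

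All aged telogen arrays lay on the third slide and no other telogen array did, so age and slide cannot be told apart in telogen. The aged arrays shared that slide with 1 other array, HFD 4 days anagen. It was at -0.05 for Angptl4, below all 4 aged arrays, but 1 array cannot separate age from slide. With slide as a block, which leans on the single anagen arrays, the aged difference was 0.72 ± 1.59 against ND 3 months (limma adjusted p = 0.994) and 1.57 ± 1.08 against ND 4 days (adjusted p = 1). Over 18 alternatives in all its adjusted p ran from 0.0675 to 0.994 against ND 3 months. Adipocyte markers, which fat cells carry beside Angptl4, had linear summed levels of 4.40, 5.51 and 10.4 in aged telogen, against 2.43, 5.46 and 2.47 in ND 3 months and 3.40, 4.99 and 3.10 in ND 4 days. None of the 8 adipocyte markers was called. Of these, 7 had a higher mean in aged than in ND 3 months and 4 than in ND 4 days. Of the 10 bulge markers 0 and 2 did, where 53.5% and 43.7% of all genes did, and 0 were called. Aged sample 1, with the highest Angptl4, had the lowest of the 3 aged adipocyte sums. It also had the lowest linear bulge marker sum of the telogen arrays, 319 in a range up to 616. The part of these cell types in the Angptl4 values was not tested.

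**Figure D2:**
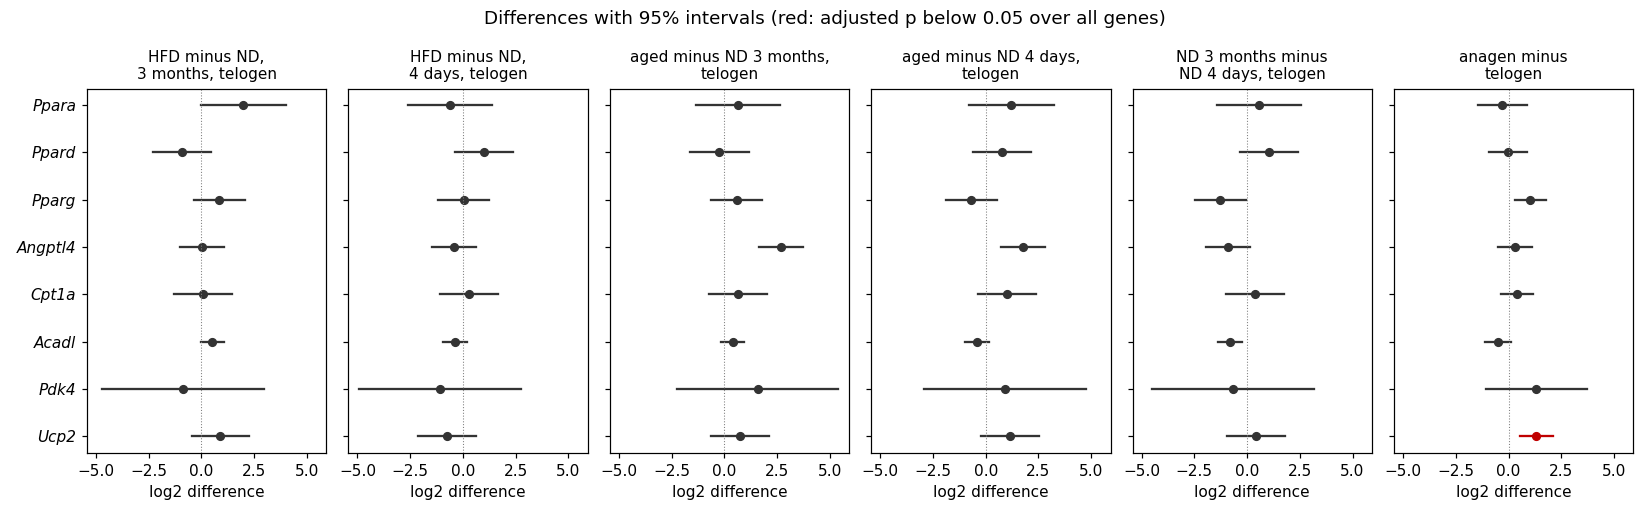
Log2 difference of each gene in 6 comparisons, with 95% intervals from limma; positive values are higher in the group named first. The anagen difference of Ucp2, in red, is the only one of the 48 plotted with an adjusted p below 0.05; the aged intervals of Angptl4 also lie above 0.

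Cpt1a, which sets the pace of fatty acid entry into mitochondria, had its smallest spread in aged mice, and none of its differences passed the test. In telogen it averaged 3.52 ± 0.11 in aged, 2.97 ± 0.66 in HFD 3 months, 2.88 ± 0.93 in ND 3 months, 2.80 ± 0.51 in HFD 4 days and 2.50 ± 1.33 in ND 4 days (SD, n = 3 each). The ND 4 days samples alone spread from 0.99 to 3.47, and every group overlapped its neighbour in this order. The aged differences were 0.64 ± 0.63 against ND 3 months and 1.02 ± 0.63 against ND 4 days (SE). The diet differences were 0.09 ± 0.63 after 3 months and 0.30 ± 0.63 after 4 days, with 95% intervals of -1.29 to 1.46 and -1.07 to 1.68. In anagen it was highest in HFD 3 months, at 3.89, and lowest in ND 3 months, at 2.71.

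Acadl, the long-chain acyl-CoA dehydrogenase, varied least between replicates, and its groups came apart in both diet comparisons, in opposite directions. After 3 months its level was 1.76, 1.84 and 1.79 in HFD telogen, against 1.20, 1.17 and 1.46 in ND telogen. After 4 days it was 1.45, 1.96 and 1.74 in HFD telogen, against 2.02, 2.04 and 2.20 in ND telogen. All HFD samples were above all ND samples at 3 months and below them at 4 days. The differences were 0.52 ± 0.26 and -0.37 ± 0.26 (SE), and neither passed. The difference between the durations, 0.89 ± 0.36, had a limma p of 0.0304 and an adjusted p of 1.

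The normal diet groups of Acadl differed more than the diets did. ND 3 months telogen averaged 1.28 ± 0.16 and ND 4 days telogen 2.09 ± 0.10 (SD, n = 3 each), a difference of -0.81 ± 0.26 (SE; limma adjusted p = 0.341). These mice differ in age, in time on the diet and in slide, which cannot be told apart. The order of the telogen means was ND 4 days, HFD 3 months, HFD 4 days, aged and ND 3 months, in which the middle 3 groups overlapped. ND 4 days was apart from HFD 3 months, next to it, and aged overlapped ND 3 months.

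Anagen split Acadl by condition. The aged, HFD 3 months and ND 3 months anagen arrays were at 1.88, 1.72 and 1.96, while HFD 4 days and ND 4 days were at 0.52 and -0.07, the lowest of all 20 arrays. Set against the telogen mean of the same condition, the 4 day arrays differed by -1.20 in HFD and -2.16 in ND, and the others by 0.21, -0.08 and 0.68. The 4 day anagen arrays lay on different slides. With 1 anagen array a condition this split has no replicate check. The average over conditions, -0.51 ± 0.29, did not pass (limma adjusted p = 0.311), and without the ND 4 days anagen array it was -0.10.

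Pdk4, the kinase that turns off pyruvate dehydrogenase, had the widest spread of the 8, from -6.79 to 1.32 over the 20 arrays. Replicates of the aged telogen group alone lay at 1.32, -1.91 and -5.16, the last of these not well above background. No telogen group was apart from another, and the telogen differences between groups carried an SE of 1.76. The 95% interval of HFD minus ND at 3 months, for example, ran from -4.72 to 2.95, so only very large changes were detectable. In anagen it was 1.32 in aged, -1.89 in HFD 3 months, not well above background in ND 3 months, 0.18 in HFD 4 days and -3.94 in ND 4 days. Against the lowest signal called above background on the ND 3 months array, HFD 3 months anagen was at least 7.94-fold higher and aged anagen at least 73.4-fold higher, from 1 array each. Without replicates these have no test, and the arrays compared lay on different slides.

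The highest arrays of Pdk4 and Angptl4 were the same, but those below them were not. Aged anagen and aged telogen sample 1 held the top level of both genes among the 20 arrays. Aged telogen samples 2 and 3 were next for Angptl4, at 1.03 and 1.07, with Pdk4 at -1.91 and -5.16. Over the 15 telogen arrays Pearson's r was 0.58, and 0.62 with group means removed, a description over arrays that share slides and scaling. Without the aged group it was 0.46 over 12 arrays. Pdk4 was not well above background on samples 3 of HFD 3 months, HFD 4 days and aged telogen. The correlation of Pdk4 with the brighter Ppara probe was -0.36 and with Ppard 0.35 on the same arrays.

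Ucp2, the mitochondrial carrier, rose in anagen. Its level was 6.15 in aged, 6.20 in HFD 3 months, 5.64 in ND 3 months, 5.63 in HFD 4 days and 5.30 in ND 4 days anagen. In telogen it was 4.11, 5.71 and 5.74 in aged, 5.83, 5.16 and 5.08 in HFD 3 months, 4.29, 4.21 and 4.86 in ND 3 months, 4.61, 2.36 and 2.89 in HFD 4 days, and 4.45, 4.6 and 3.04 in ND 4 days. Each anagen array was above every telogen array of its own condition. The differences within conditions were 0.96, 0.84, 1.19, 2.34 and 1.27 in the same order. Their fitted mean was 1.32 (95% interval 0.54 to 2.11), with a limma adjusted p of 0.0453.

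This passed narrowly. In the anagen comparison 6.11% of the 18727 genes were called, and 2.81% of the 18727 were called as higher, so 1 called gene does not by itself set the 8 apart, and 9.24% of genes had all 5 differences above 0, as Ucp2 and Pparg had. These 2 genes also had an unadjusted limma p below 0.05, as did 22.9% of all genes. Leaving out each of the 20 arrays in turn gave values of 1.07 to 1.44 (adjusted p 0.0262 to 0.183), and the call was lost in 13 of these. They were the anagen arrays of aged, ND 3 months, HFD 4 days and ND 4 days and telogen samples 1 of aged, 2 and 3 of HFD 3 months, 1, 2 and 3 of ND 3 months, 2 and 3 of HFD 4 days and 3 of ND 4 days. It was also lost with no filter on dim probes (adjusted p = 0.055) and with slide as a block (1.14, adjusted p = 0.164). The second Ucp2 probe gave an anagen difference of 1.92 and correlated with the first at 0.96 over the 20 arrays. Of the 10 bulge markers 9 had a lower mean in anagen and 2 were called lower, with a median difference of -0.31, against -0.16 over all genes. Their linear summed level was 314 to 442 in anagen and 319 to 616 in telogen. Of the 6 suprabasal markers tested, 5 had a higher mean in anagen, with a median difference of 0.68. Krt1, a keratin of the suprabasal layers, was called higher at 1.26 ± 0.36 (limma adjusted p = 0.0477), and Krt1 and Krt10 were above 0 in all 5 conditions. Of the other lists, fibroblast markers had 1 called higher and 1 lower of 4 tested and red blood cell markers 1 lower of 4. The part of these cell types in the Ucp2 values was not tested.

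**Figure D3:**
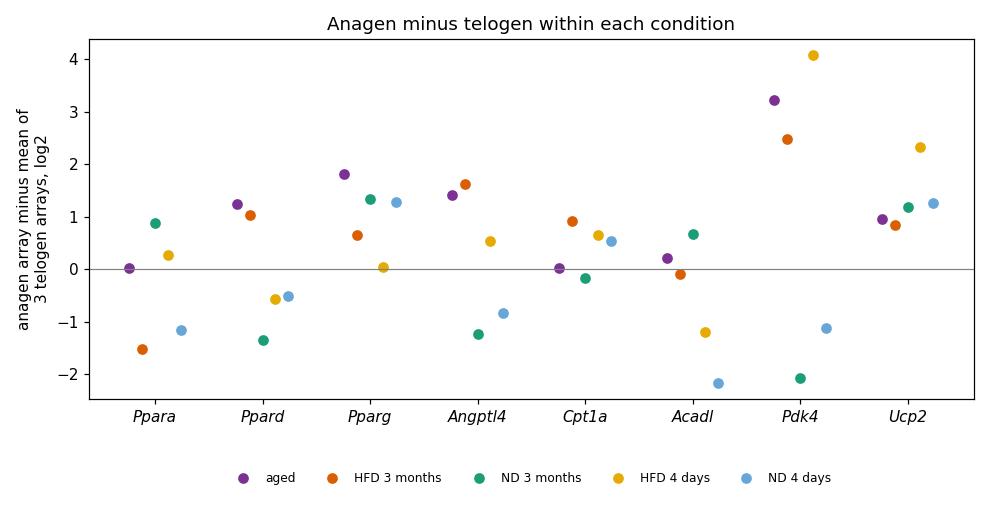
Anagen array minus the mean of the 3 telogen arrays of the same condition, in log2 units, for each gene; colours are the 5 conditions. Only Ucp2 and Pparg have all 5 points above 0; each Pdk4 point except that of ND 4 days rests on an array not well above background.

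The diet differences of Ucp2 had opposite signs at the 2 durations and did not pass. At 3 months all HFD telogen samples were above all ND samples, a difference of 0.90 ± 0.63, and at 4 days the groups overlapped, with a difference of -0.74 ± 0.63 (SE, n = 3 each). The test between durations gave 1.64 ± 0.89 (limma adjusted p = 1). The second probe gave 1.25 and -0.75. Within telogen the means stood in the order HFD 3 months, aged, ND 3 months, ND 4 days and HFD 4 days, from 5.36 ± 0.41 to 3.29 ± 1.18 (SD), and each overlapped the next in this order. HFD 3 months and ND 3 months, which are not adjacent, did not overlap.

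Ucp3, the carrier gene next to Ucp2 on chromosome 7, with 0 genes between them in RefSeq, followed Ucp2 more closely than any of 12797 ranked genes. Pearson's r was 0.95 over the 15 telogen arrays, 0.93 with group means removed and 0.96 over all 20 arrays. Its anagen level was 5.02 in aged, 5.19 in HFD 3 months, 4.67 in ND 3 months, 4.36 in HFD 4 days and 4.44 in ND 4 days. Its anagen difference of 0.77 ± 0.24 had the sign of that of Ucp2 in all 5 conditions (0.59 to 1.06) and did not pass (limma adjusted p = 0.0662). Ucp2 and Ucp3 are related in sequence, and how far a probe for 1 of them also binds the other was not tested.

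**Figure D4:**
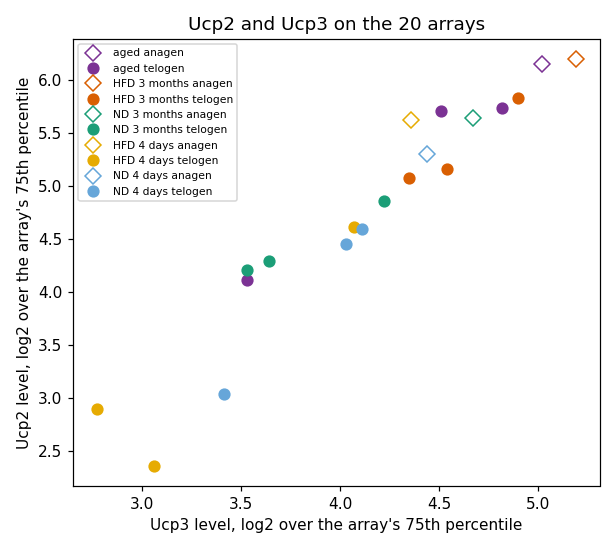
Level of Ucp2 (vertical) against level of Ucp3 (horizontal) on each of the 20 arrays, both in log2 relative to the 75th percentile of the array; diamonds are anagen and circles telogen. The points lie along 1 line (r = 0.96), with HFD 4 days telogen samples 2 and 3 lowest.

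The remaining genes named by likeness, the 2 with the highest r to each of the 8 over the 15 telogen arrays, were different for every gene. Vgf, a neuropeptide precursor (r = 0.926), and Lce1c, of the cornified envelope (0.905), were nearest to Angptl4, and over the 12 telogen arrays without the aged group both had an r of 0.78 with it. Plekhf2 (0.878) and Klf1 (0.856) were nearest to Pparg, and Barx2 (0.847) came second for Ucp2. Olfr319 (0.854) and Vps39 (0.798) were nearest to Acadl. Vdac3, a mitochondrial outer membrane channel (0.828), and Zfp429 (0.807) were nearest to the brighter Ppara probe. Values for Ppard (Senp5 and Immt, 0.792 and 0.783), Cpt1a (Vgll4 and Prkd2, 0.79 and 0.786) and Pdk4 (C1rl and Czib, 0.799 and 0.785) were lower. These are the extremes of 12797 correlations over few arrays and are descriptions.

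In the diet comparisons the 8 genes stood as follows. After 3 months 0 were called, at a background of 0% of all genes, and 0 had an unadjusted limma p below 0.05, where 3.9% of all genes did. Acadl and Ucp2 were above ND without overlap and Ppard below it, where 4.15% of all genes were apart as higher and 5.7% as lower. Their median difference was 0.30, against -0.04 over all genes tested. After 4 days 0 were called, again with a background of 0%, and 0 had an unadjusted p below 0.05, against 4.36% of all genes. Acadl alone was apart, as lower in HFD, where 3.73% of all genes were apart as higher and 5.97% as lower. The median was -0.39, against -0.05 over all genes. Averaged over both durations 0 were called (background 0%), and the differences ran from -0.99 ± 1.25 for Pdk4 to 0.69 ± 0.65 for the brighter Ppara probe. For the difference between durations 0 were called (background 0%) and 1, Acadl, had an unadjusted p below 0.05, against 3.74% of all genes. Duration cannot be told apart from age and slide, and diet cannot be told apart from the row of the slide.

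In the age comparisons 0 of the 8 were called, where 0.0641% of all genes were called against ND 3 months and 0.0374% against ND 4 days. At an unadjusted limma p below 0.05 there was 1 of 8 in each, Angptl4, against 11.9% and 7.85% of all genes. Angptl4 and Pparg were apart as higher against ND 3 months, and Angptl4 against ND 4 days, where 11.6% and 3.97% of all genes were apart as higher. The median differences of the 8 were 0.65 and 0.96, against 0.06 and -0.09 over all genes. Both comparisons use the same aged samples, and in both age cannot be told apart from slide. Between ND 3 months and ND 4 days 0 were called (background 0.016%), 2 had an unadjusted p below 0.05 (11.8% of all genes), and Acadl, Angptl4 and Pparg were apart as lower, where 19.8% of all genes were.

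Of a wider list of 64 genes of the pathway, 61 were tested and 4 passed in anagen against telogen, 1 higher and 3 lower, where 2.81% of all genes passed as higher and 3.31% as lower. Fabp5, the epidermal fatty acid binding protein that carries ligand to PPAR delta, rose by 1.67 ± 0.29 (limma adjusted p = 0.00254), to 4.45 to 5.45 in anagen against 1.82 to 4.30 in telogen. The suprabasal markers given beside Ucp2, with Krt1 called higher, bear on the same arrays, and their part in the Fabp5 values was not tested. Pdk2, a sister kinase of Pdk4, fell by 1.90 ± 0.36 (adjusted p = 0.00446). Txnip, an inhibitor of glucose uptake, fell by 1.11 ± 0.24 (adjusted p = 0.012), and Eci1, an enzyme for unsaturated fatty acids, fell by 0.99 ± 0.25 (adjusted p = 0.0278). Each of the 4 had its sign in all 5 conditions, where 1730 of the 18727 genes had all 5 differences above 0 and 1809 had all below 0. The 4 passed on the mean of these same differences, so the shared sign is no separate check. The other 14 of 15 genes of mitochondrial oxidation did not pass, and the list's median was 0.14, against -0.16 over all genes.

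In telogen 0 of the 61 passed in any comparison. At an unadjusted limma p below 0.05 there were 6 (9.84%) in aged against ND 3 months and 3 (4.92%) in aged against ND 4 days, where 11.9% and 7.85% of all genes were. There were 0 in the diet comparison at 3 months and 2 (3.28%) in that at 4 days, where 3.9% and 4.36% of all genes were, and 5 (8.2%) in ND 3 months against ND 4 days, where 11.8% were. Txnip was at 5.87, 4.98 and 5.94 in aged telogen, against 4.55, 4.31 and 4 in ND 3 months and 3.79, 4.46 and 4.36 in ND 4 days. The aged samples were above both normal diet groups, by 1.31 ± 0.39 and 1.39 ± 0.39, with limma adjusted p of 0.285 and 0.341. Of the receptor partners and coregulators, Ncor1, a corepressor, was -1.07 ± 0.44 against ND 3 months (adjusted p = 0.375).

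After 3 months of diet the smallest p in the list belonged to Acsl1, which activates long-chain fatty acids, at 1.67 ± 0.78 (limma adjusted p = 1). After 4 days it belonged to Acaa2, the last enzyme of mitochondrial oxidation, at -0.56 ± 0.23, and to Ppargc1a, a PPAR coactivator, at 4.28 ± 1.94 (adjusted p = 1 for both). Ppargc1a was well above background on 3 of 3 HFD 4 days telogen arrays, at -0.89, -0.77 and 0.04, and on 1 of 3 ND 4 days telogen arrays, at -1.90, so its difference rests largely on signal near background in ND. The list's medians in the diet comparisons were 0.01 and -0.11.

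Between single anagen arrays, 4 of the 8 genes were over 2-fold higher in HFD 3 months than in ND 3 months. They were Ppard, Angptl4, Cpt1a and Pdk4, at a background of 32.6% of all genes higher. The ND 3 months anagen array had the lowest share of spots well above background, at 60.7%. Between HFD 4 days and ND 4 days Pdk4 was higher and Pparg lower, where 12.2% of genes were higher and 14.4% lower. Aged anagen was over 2-fold above ND 3 months anagen for 4 genes (background 22.6%) and above ND 4 days anagen for 5 (14.2%), with Ppard, Angptl4 and Pdk4 in both. Ppard, the first of these, was 0.96 in aged, -1.40 in ND 3 months and -1.58 in ND 4 days anagen, while its aged telogen samples ranged from -1.33 to 1.07. With 1 array each these differences have no replicate check. The arrays of each pair lay on different slides, so slide cannot be told apart from diet or age. On the aged anagen array the linear summed level of macrophage and Langerhans cell markers was 31.4, against 3.72 to 15 on the other anagen arrays and 6.13 to 16 in telogen, and its part in these values was not tested.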

How the data were processed

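Total RNA of hair follicle stem cells was purified with a column kit, labelled with Cy3 and hybridised to 1-colour Agilent mouse arrays, per the labels' protocols. Spot intensity was made with Agilent Feature Extraction 10.7.1.1, per the file headers, and is background-subtracted with no scaling between arrays. Values of the deposited series table, a linear signal, matched this intensity divided by the 75th percentile of the array. Its column medians ran from 0.088 to 0.168, genes were not centred, and neither its scale nor its direction stayed unknown. Each array held 59305 spots, with 0 saturated and 62 to 159 outlier spots left out.

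Intensities were averaged per probe and put on the log2 scale, and the 75th percentile of the array was subtracted. A probe was tested if well above background on all 3 arrays of a telogen group or on 3 of 5 anagen arrays (43395 of 56605 probes). Transcript accessions matched exactly 1 RefSeq symbol for 32994 probes. The other 23611, matching none or more than 1, were left out of gene tests. The tested probe with the highest mean stood for a gene. All telogen comparisons came from 1 fit over 15 arrays; anagen was set against telogen over 20 arrays, adjusting for condition (limma 3.58.1, R 4.3.3, data.table at 1.17.8). Tests were two-sided, adjusted by Benjamini-Hochberg over the 18727 genes, with 0.05 as the threshold. The median half-width of a 95% interval was 1.15 between telogen groups and 0.75 in the anagen comparison; the precision is limited by the number of arrays.

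The 8 genes and the lists were chosen with earlier results of these data known. Genes named besides the 8 are the pathway genes with the smallest p (up to 5 a comparison) and, for each of the 8, the 2 most alike by Pearson's r among genes well above background on all telogen arrays, without predicted or clone names. A gene that the rule names is not reported here. Alternatives were normexp (offset 50, on median signals), quantile and median scaling, a percentile over detected probes, the series table, other filters, the mean over probes, other sets of arrays, slide and replicate blocks, and leaving out each array.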

Additional observations from a re-analysis of the deposited data

Results flagged for a closer look

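Acadl, the long-chain acyl-CoA dehydrogenase, was flagged because its diet difference ran opposite ways at the 2 durations, with every HFD telogen sample above every ND sample after 3 months and below every ND sample after 4 days. The diet difference after 3 months minus that after 4 days was 0.89 ± 0.36 (SE, n = 3 a group). The test of this difference gave a limma p of 0.0304 and an adjusted p of 1 over all genes. Over 24 alternatives the difference ran from 0.18 to 1.01. The 4 day diet difference ran from -0.52 to 0.07 and changed sign in 1 of 18 alternatives. Mean levels at 3 months and 4 days were 1.80 and 1.72 in HFD and 1.28 and 2.09 in ND telogen. Duration cannot be told apart from age and slide.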

How the results depend on the processing

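The alternatives bore on the calls of Ucp2 and Pparg in anagen against telogen. The number of the 8 genes called in anagen against telogen was 1; it was 2 with median scaling (Ucp2 and Pparg), 0 with no filter on dim probes, 0 with slide as a block, and 0 to 1 when 1 array was left out. Pparg was called with median scaling (limma adjusted p = 0.0289) and without HFD 3 months telogen replicate 2 (adjusted p = 0.0347). The call of Ucp2 was lost in 13 of 20 such omissions, among them each anagen array except HFD 3 months, and its adjusted p ran up to 0.183 (limma). The number called was 0 in every telogen comparison under every alternative run. Over 1328 recomputed differences, 83 changed sign, all of them uncalled under both settings: 50 when an array was left out, 14 with the slide block, 8 with telogen and anagen arrays in 1 fit (an alternative chosen after seeing the data), 6 with median scaling, 4 with the mean over probes and 1 with quantile normalization. With the slide block, aged against ND 3 months gave Cpt1a -0.62, Pdk4 -3.64 and Ucp2 -0.23; the cause was not tested. Median scaling moved the median of all genes from -0.16 to 0.06 in anagen against telogen and from 0.06 to -0.22 in aged against ND 3 months. Genes called in anagen numbered 677 with the slide block against 1145, and 555 to 2056 with 1 array left out. Same-numbered telogen samples did not deviate together (30 correlations of -0.14 to 0.06), which does not exclude a pairing. With a replicate block Angptl4 stayed at 2.67 in aged against ND 3 months (limma adjusted p = 0.164). With this block 0 of the 8 genes were called. Brightness of Pdk4 and of the second Ppara probe near background limits both.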
